A study of Mus musculus with 12 samples.

Results

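Thy1, Cd24a and the Ly6 proteins are small surface antigens that are held in the outer leaflet of the membrane by a glycosylphosphatidylinositol (GPI) anchor. The members described here are the probe sets whose platform symbol is Thy1, Ly6a, Ly6c1, Ly6d, Ly6e or Cd24a. The rule found 7 probe sets of the 12422 non-control probe sets on the array, and they cover 5 of the 6 genes. Thy1 and Cd24a had 1 probe set each, Ly6d and Ly6e had 2 each, and 1 probe set is annotated to Ly6c1 and Ly6c2 together, so its value cannot be assigned to either gene. No probe set carries the symbol Ly6a in the annotation used here, and Ly6a was not analysed here. The members were chosen by their platform symbols, with measured values already known. The family was selected on the difference of Thy1 between HY_high and HY_low, so member values of that comparison are given below as a description, without a test. Test counts are given for it only for other gene lists and over all probe sets.

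The RNA came from thymocytes at day 6 of RTOC, reaggregate cultures of thymocytes with stromal cells of the thymus, and was hybridised to 12 Affymetrix mouse arrays. The OT1 group (4 arrays) held thymocytes with the OT1 T cell receptor, which sees an ovalbumin peptide on a class I molecule, and its labels name no peptide. The HY_low group (4 arrays) held thymocytes with the HY receptor, which sees a class I-bound peptide of the male antigen Smcy, cultured with that peptide at 1e-07 M. The HY_high group (4 arrays) held HY thymocytes with the peptide at 1e-05 M. Titles of the HY_low arrays carry the letters ab and those of the HY_high arrays the letters aa, which the labels do not explain, so dose and whatever these letters mark cannot be told apart. Receptor and peptide change together in the comparisons with OT1 and cannot be told apart either. The labels give no age, sex, strain background or cell sort, and they do not say that arrays of a group came from separate cultures, so p-values measure only the spread between these arrays.

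Thy1 is the classical surface marker of mouse T cells and thymocytes. Cd24a, the heat stable antigen, is abundant on immature thymocytes and is lost as they mature. Ly6c1 and Ly6c2 are carried by subsets of T cells, monocytes and endothelium, Ly6e (thymic shared antigen) by immature thymocytes, and Ly6d by early B lineage cells and some epithelia. Several Ly6 genes are induced by interferons. The Ly6 genes lie together on mouse chromosome 15 in the order Ly6d, Ly6e, Ly6a, Ly6c1, Ly6c2, while Thy1 is on chromosome 9 and Cd24a on chromosome 10.

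For the Ly6c genes, which share 1 probe set, the 120 bases before the start of each are shown to let a reader see how alike the neighbours are there. These bases lie before the transcript, so they do not bear on which RNA the probe set reads. They are on the minus strand of GRCm38.p6, from RefSeq, at chr15:75048838-75048957 for Ly6c1 and chr15:75111972-75112091 for Ly6c2, and capitals mark an E-box (CANNTG).
Ly6c1: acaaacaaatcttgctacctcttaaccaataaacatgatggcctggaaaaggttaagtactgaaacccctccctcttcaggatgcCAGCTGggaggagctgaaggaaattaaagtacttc
Ly6c2: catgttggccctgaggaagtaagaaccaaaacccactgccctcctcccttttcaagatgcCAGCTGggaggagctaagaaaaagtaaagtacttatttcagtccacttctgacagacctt
Over the table's full windows of 300 bases, a local alignment of the pair covered 288 columns, of which 214 (74.3%) held the same base. The window of Ly6c1 held 4 E-boxes and that of Ly6c2 held 2, and 72.3% of the 32851 windows in the table held at least 1. The motif TTCNNNGAA (GAS, a type of interferon motif), searched on both strands, had 0 matches in either window, and 8.30% of all windows held it. Other types of interferon motif were not searched for. The ETS core GGAAG, searched the same way, had 1 match in the window of Ly6c1 and 3 in that of Ly6c2 (71.4% of all windows had 1 or more).

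Intensities are linear values as deposited. Array medians lay between 3.33 and 3.97, and from 3.0% to 22.5% of an array's values stood at 1, the lowest value of the table. Arrays with the same number in the 3 groups deviated together from their group means, with correlations from 0.341 to 0.593 for the 12 same-numbered pairs and from -0.40 to 0.163 for the 36 others, so the numbers pair the arrays. A limma fit without the number is the main test, and the fit with the number as a block is given beside it where it changes a call. T cell markers were present in every group: 9 of the 9 measured were tested, and their median log2 intensity ran from 5.26 to 7.53 over the arrays. Not every marker was bright on every array. Ptprc was at 17.5, 5.55 and 7.47 on the arrays numbered 1 of OT1, HY_low and HY_high, and at 109 to 293 on the others. Over all probe sets tested, 9.13% had the arrays numbered 1 below all others. Lat fell to 3.29 on HY_low array 2 and Cd247 to 4.56 on HY_low array 1. Of the 7 member probe sets, 4 passed the filter on dim values and were tested among 8695.

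Thy1 was bright on every array and lower in HY_high than in OT1. Its intensity on OT1 arrays 1 to 4 was 772, 407, 544 and 502. On HY_low arrays 1 to 4 it was 709, 301, 700 and 634, a range that contains the whole OT1 range apart from its top. On HY_high arrays 1 to 4 it was 382, 163, 306 and 158. All 4 HY_high arrays therefore lay below all 4 OT1 arrays, while the highest HY_high array lay above the lowest HY_low array. In these bulk samples, fewer cells that carry Thy1 and less Thy1 RNA per cell cannot be told apart.

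Thy1 had geometric means of 541 (OT1), 555 (HY_low) and 234 (HY_high). Against OT1, HY_high was 2.31-fold lower (-1.21 ± 0.43 SE in log2 units, 4 arrays each, limma adjusted p = 0.788), which did not pass. When the number entered as a block, the same difference had an SE of 0.21 and passed (limma adjusted p = 0.00564). Within numbers 1 to 4 the log2 difference was -1.02, -1.32, -0.83 and -1.67, lower in 4 of 4. Without the block no member passed in that comparison, where 0.173% of the probe sets tested did, and limma gave 1 of the 4 (Thy1) at an unadjusted p under 0.05. With the block 1 of 4 passed, which was Thy1, and 4 of 4 had an unadjusted p under 0.05. Over all probe sets tested, an unadjusted p under 0.05 was found in 4.08% without the block and in 11.7% with it. In it 0.23% of the probe sets tested were lower past the threshold with the block, 0.0345% were without it, and in 1.01% all HY_high arrays lay below all OT1 arrays. Lower values within all 4 numbers were found for 8.74%. Leaving out the arrays of number 1, 2 or 3 in turn, an alternative added after the data were seen, gave block adjusted p of 0.0168, 0.0408 and 0.0258 by limma. Leaving out those of number 4 ended the call (limma adjusted p = 0.0547). Over all probe sets tested, 135, 63, 44 and 51 passed in these fits. This comparison uses the HY_high arrays by which Thy1 was put forward, so it is not independent of that choice.

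HY_low and OT1 differed in Thy1 by 0.04 ± 0.43 log2 units, higher in HY_low within 2 of 4 numbers (limma adjusted p = 1, or 0.977 with the block). No member passed in that comparison by either fit, where 0.023% of the probe sets tested did without the block and 0.092% with it. At an unadjusted p under 0.05 limma gave 1 of the 4 members without the block (Cd24a) and 2 with it (Cd24a and Ly6e), where 2.65% and 8.37% of all probe sets tested had such a p. Between HY_high and HY_low the log2 difference of Thy1 was -1.24 (SE 0.43, or 0.21 with the block), with -0.89, -0.89, -1.20 and -2.01 within numbers 1 to 4. Of the probe sets tested, 9.76% were lower within all 4 numbers there. The drop within number 4 was more than 1 log2 unit deeper than within numbers 1 and 2. The 3 probe sets whose log2 intensity followed Thy1 best over the 12 arrays, among 1336 bright ones with 1 symbol, were Cd2 (r = 0.89), Fkbp4 (r = 0.83) and Ube2v1 (r = 0.83). With the means of the numbers removed, r was 0.89, 0.83 and 0.88. These arrays share numbers and groups, so the correlations are descriptions.

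Cd2, an adhesion receptor of T cells, had geometric means of 197 (OT1), 203 (HY_low) and 95.5 (HY_high). Its log2 difference between HY_high and OT1 was -1.05 ± 0.55 (limma adjusted p = 1, or 0.0402 with the block). On HY_high array 1, however, Cd2 was at 268, as high as on OT1 array 1 (279), where Thy1 was at 382 against 772.

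**Figure D1:**
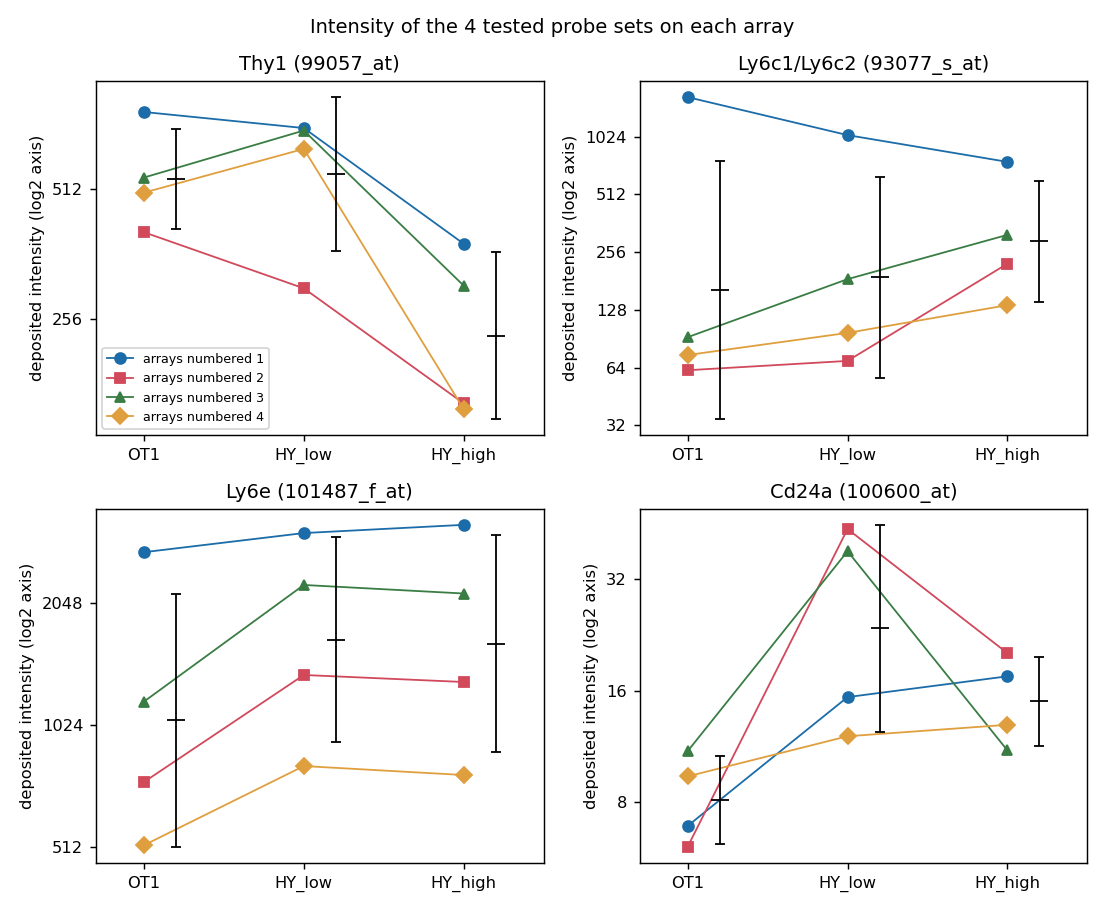
Deposited intensity (log2 axis) of the 4 tested probe sets on the 4 arrays of each group, lines joining arrays with the same number. Black marks are the geometric mean ± 1 SD of the log2 values (n = 4). Thy1 is lowest in HY_high, Ly6e keeps the numbers apart in every group, and the arrays numbered 1 stand above the rest for Ly6c1/Ly6c2.

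Cd24a was dim and was lowest in OT1. Its intensity on OT1 arrays 1 to 4 was 6.91, 6.07, 10.99 and 9.40. On HY_low arrays 1 to 4 it was 15.4, 43.7, 38.1 and 12.1, and on HY_high arrays 1 to 4 it was 17.5, 20.2, 11.04 and 13.0. Every array of both HY groups lay above every OT1 array, although HY_high array 3 (11.04) only just exceeded OT1 array 3 (10.99), and the HY groups overlapped each other.

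Cd24a had geometric means of 8.11 (OT1), 23.6 (HY_low) and 15.0 (HY_high). HY_low was 2.90-fold above OT1 (1.54 ± 0.48 SE in log2 units, 4 arrays each, limma adjusted p = 1, or 0.201 with the block), which did not pass. The differences within numbers 1 to 4 were 1.15, 2.85, 1.79 and 0.36, higher in 4 of 4. The largest was within number 2, whose OT1 array held more values at 1 than its HY arrays. In 0.886% of the probe sets tested all HY_low arrays lay above all OT1 arrays, and 9.73% were higher within all 4 numbers. HY_high was 1.85-fold above OT1 (log2 difference 0.89 ± 0.48, limma adjusted p = 1, or 0.372 with the block), with 1.34, 1.73, 0.01 and 0.46 within the numbers. There 1.52% of the probe sets had all HY_high arrays above all OT1 arrays, and 10.4% were higher within all 4 numbers. Both comparisons use the same OT1 arrays. Between HY_high and HY_low the log2 difference was -0.65 (SE 0.48), lower within 2 of 4 numbers.

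Markers of other cells that can carry Cd24a were measured beside it. Of 4 erythroid markers measured, the summed intensity per array was 12 to 20.4 in OT1, 13.3 to 29.8 in HY_low and 11.9 to 22.8 in HY_high. That of 8 granulocyte markers was 24.0 to 44.5, 20.8 to 59.6 and 21.2 to 40.7, with the highest value on HY_low array 2, where Cd24a was also highest. On that array the erythroid sum was at its highest too. All 4 erythroid and all 8 granulocyte markers, however, had a median below 8 over the 12 arrays, near the bottom of the scale. Csf3r alone gave 29.3 of the granulocyte sum on HY_low array 2. B cells also carry Cd24a, and their 8 markers summed to 85.8 to 1012 over the 12 arrays, mostly from Ighm (59.4 to 987). On HY_low array 2 the B cell sum was at its lowest. The part of these cells in the Cd24a values was not tested. The probe sets most like Cd24a were Agfg1 (r = 0.82 over the 12 arrays), Sin3a (r = 0.79) and Eif1b (r = 0.77).

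Ly6e was the brightest member, and its values separated by array number more than by group. Its bright probe set, of the type marked f, was at 2736, 739, 1169 and 516 on OT1 arrays 1 to 4. On HY_low arrays 1 to 4 it was at 3051, 1360, 2270 and 810, and on HY_high arrays 1 to 4 at 3197, 1307, 2162 and 770. In each group array 1 was highest, followed by 3, 2 and 4. The 4 numbers kept the same order over the 3 groups, whichever order it was, in 4.86% of the probe sets tested. The groups overlapped widely. A probe set of that type can read several family members.

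Within every number, both HY groups were above OT1. Its geometric means were 1051 (OT1), 1662 (HY_low) and 1624 (HY_high). HY_low was 1.58-fold above OT1 (0.66 ± 0.58 SE in log2 units, 4 arrays each, limma adjusted p = 1), and with the block the SE fell to 0.18 without the difference passing (limma adjusted p = 0.238). The differences within numbers 1 to 4 were 0.16, 0.88, 0.96 and 0.65. HY_high was 1.55-fold above OT1 (log2 difference 0.63 ± 0.58, limma adjusted p = 1, or 0.119 with the block), with 0.22, 0.82, 0.89 and 0.58 within the numbers. Without the arrays numbered 1, an alternative added after the data were seen, the block fit gave 0.76 and passed (limma adjusted p = 0.0439). Without those of number 2, 3 or 4 it did not (limma adjusted p = 0.306, 0.555 and 0.410). Over all probe sets tested, 135 passed without number 1, and 63, 44 and 51 without number 2, 3 or 4.

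The HY groups had nearly the same Ly6e values. The log2 difference of HY_high from HY_low was -0.03 (SE 0.58, or 0.18 with the block), and the 4 within-number values ran from -0.07 to 0.07. Their SD was 0.07, against 0.53 for Thy1, 0.88 for Ly6c1/Ly6c2 and 0.96 for Cd24a in the same comparison. The other Ly6e probe set lay between 1 and 4.24 on all 12 arrays, failed the filter and carries no readable difference.

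**Figure D2:**
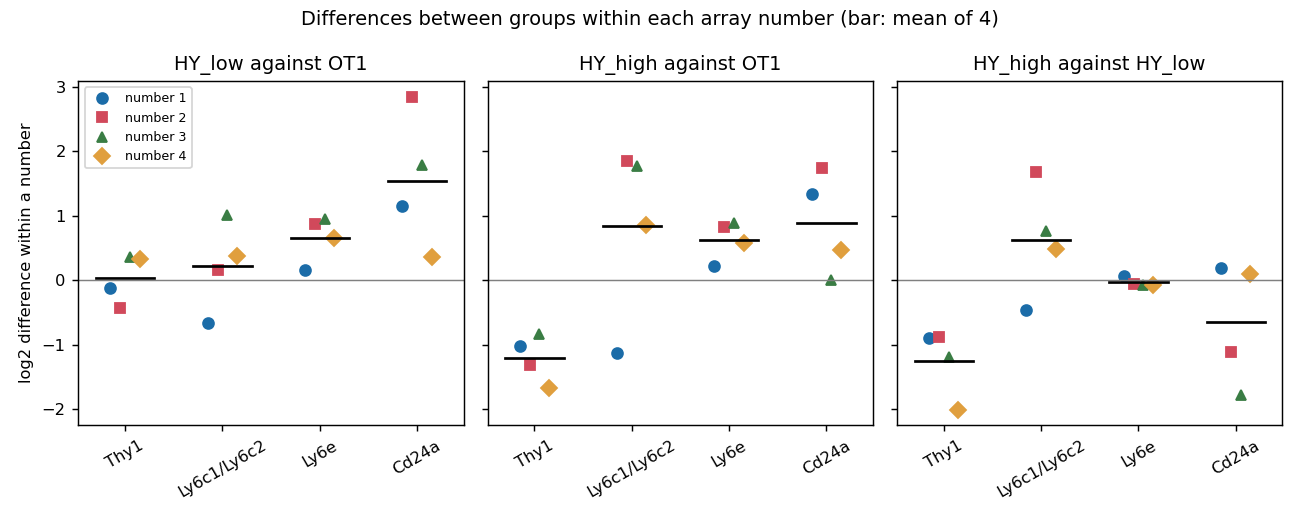
Log2 difference between groups within each array number for the 4 tested probe sets, in the 3 comparisons, with a bar at the mean of the 4 numbers. Thy1 is below 0 within every number in both comparisons of HY_high, and Ly6e is above 0 within every number in both comparisons with OT1, while number 1 goes the other way from the rest for Ly6c1/Ly6c2.

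The probe set shared by Ly6c1 and Ly6c2 was bright on the arrays numbered 1 and lower on all others. It read 1645, 62.0, 92.1 and 74.4 on OT1 arrays 1 to 4. On HY_low arrays 1 to 4 it read 1043, 69.3, 185 and 97.0, and on HY_high arrays 1 to 4 it read 756, 223, 315 and 135. The 3 arrays numbered 1 (756 to 1645) lay above the 9 others (62.0 to 315), by 9.11-fold in geometric mean, a separation that 6.47% of the probe sets tested also showed. Ly6e had it as well (2736 to 3197 against 516 to 2270), and Thy1 and Cd24a did not.

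Among the arrays numbered 2, 3 and 4, each HY_high value for Ly6c1/Ly6c2 was above the HY_low and OT1 values of the same number, and on the arrays numbered 1 the order was the opposite. Over all arrays HY_high was 1.79-fold above OT1 (0.84 ± 0.95 SE in log2 units, 4 arrays each, limma adjusted p = 1, or 0.347 with the block), with -1.12, 1.85, 1.77 and 0.86 within numbers 1 to 4. Leaving out the arrays numbered 1, an alternative added after these values were seen, gave 1.49 with the block (limma adjusted p = 0.0124), where 135 of all probe sets tested passed. Leaving out number 2, 3 or 4 in its place gave 0.51, 0.53 and 0.83 (limma adjusted p = 0.671, 0.796 and 0.604). HY_low exceeded OT1 by 0.22 ± 0.95 log2 units (limma adjusted p = 1, or 0.897 with the block), with -0.66, 0.16, 1.01 and 0.38 within the numbers. Between HY_high and HY_low it was 0.62 (SE 0.95), with -0.46, 1.68, 0.77 and 0.48.

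The arrays numbered 1 differed from the others in further genes. Cd8b1, the CD8 beta chain, was at 219 on OT1 array 1 against 835 to 1219 on the other OT1 arrays, and at 172 on HY_low array 1 against 698 to 1374. In HY_high it lay between 1 and 8.26. Ighm, the immunoglobulin mu chain, was at 987, 593 and 461 on the arrays numbered 1 and between 59.4 and 298 on the others. The other B cell markers of the 8 measured were dimmer. Cd79a lay between 1.06 and 6.06, Cd22 between 1 and 3.69, Blnk between 1 and 5.06 and Vpreb1 between 1.16 and 5.67. Ms4a1 lay between 2.04 and 9.77 and Pax5 between 2.41 and 11.25. Pax5 was highest of its group on array 1 in HY_low (9.04) and HY_high (11.25), and lowest of its group there in OT1 (2.41). Cd79b lay between 3.86 and 42.9, with its highest value on HY_high array 1. The list summed to 92.4 to 1012 in OT1, 85.8 to 639 in HY_low and 161 to 531 in HY_high. Endothelial markers, 7 in number, summed to 33.3 to 39.8, 28.8 to 54.4 and 33.1 to 49.0. Eng, the brightest of them, lay between 5.14 and 32.8 and Pecam1 between 2.07 and 20.2, while Cdh5 reached no more than 1.65 and Tie1 no more than 2.06. In HY_low and HY_high the endothelial sum and Eng were highest on the arrays numbered 1, where Ly6c1/Ly6c2 was highest too, and in OT1 they were not. For macrophages and dendritic cells (13 markers) the sums were 117 to 322, 137 to 613 and 137 to 575. Ctss, a lysosomal protease, made up 68.0% to 95.1% of these sums, while Adgre1 and Itgam lay between 1 and 4.05. Other markers of the list reached higher, with Apoe at 18.5 and Lyz2 at 13.2 on HY_low array 4. Cd14 reached 12.9 on HY_high array 2 and Csf1r 11.3 on HY_low array 1. Ctss had geometric means of 148 (OT1), 234 (HY_low) and 296 (HY_high). Its difference between HY_high and OT1 passed with the block (limma adjusted p = 0.0275) and not without it. On the arrays numbered 1 of OT1, HY_low and HY_high the sums were 117, 137 and 137, the lowest of each group. Without Ctss they were 35.9, 43.9 and 34.1 there, against 29.4 to 35.5, 30.2 to 67.7 and 36.9 to 47.2 on the other arrays. The part of the other cell types in the Ly6c values was not tested. The arrays also differed by number in the Gapdh control probe sets. Those for the end of the transcript read above those for its start by 4.57 to 4.87 log2 units on number 1. The excess was 5.60 to 6.26 on number 2, 4.69 to 5.48 on number 3 and 2.95 to 3.27 on number 4. For actin it was 2.59 to 3.60, 2.02 to 2.99, 2.74 to 3.39 and 2.15 to 2.54 in the same order. The part of RNA quality in the differences between numbers was not tested.

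Of the variance of log2 intensity over the 12 arrays, 84.9% lay between numbers for Ly6e, 83.8% for Ly6c1/Ly6c2, 32.3% for Thy1 and 10.5% for Cd24a. The median over all probe sets tested was 52.8%, and over the 765 with a geometric mean above 64 it was 76.9%. The share between groups was 12.5%, 5.24%, 59.5% and 57.5% in the same order, where the medians were 10.7% and 6.93%. For Ly6e and Ly6c1/Ly6c2 the larger share lay between numbers, and for Thy1 and Cd24a between groups. The share between groups includes the difference between HY_high and HY_low by which the family was selected, so these shares are a description.

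**Figure D3:**
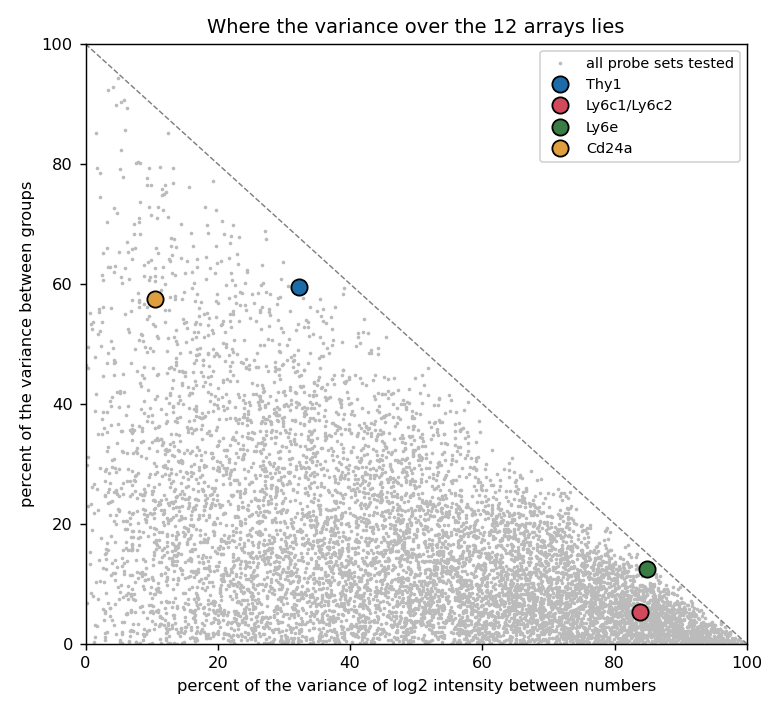
Percent of the variance of log2 intensity over the 12 arrays that lies between array numbers (horizontal) and between groups (vertical), for all 8695 probe sets tested (grey) and the 4 members. Thy1 and Cd24a have group shares of 59.5% and 57.5%, which include the difference used to select the family, and Ly6e and Ly6c1/Ly6c2 lie far along the number axis at 84.9% and 83.8%.

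The probe sets most like Ly6c1/Ly6c2 over the 12 arrays were Ctdsp2 (r = 0.96), Sec61a1 (r = 0.94) and Csnk1d (r = 0.94), and with the means of the numbers removed r was 0.74, 0.78 and 0.86. Those most like Ly6e were Scamp3 (r = 0.97), Larp4b (r = 0.97) and Tap2 (r = 0.96), or 0.88, 0.82 and 0.81 with the number means removed. Tap2, a subunit of the peptide transporter that loads class I molecules, read 185, 194 and 188 on the arrays numbered 1 of OT1, HY_low and HY_high, and between 12.1 and 71.9 on the others. For all 6 genes r was lower once the number means were removed.

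**Figure D4:**
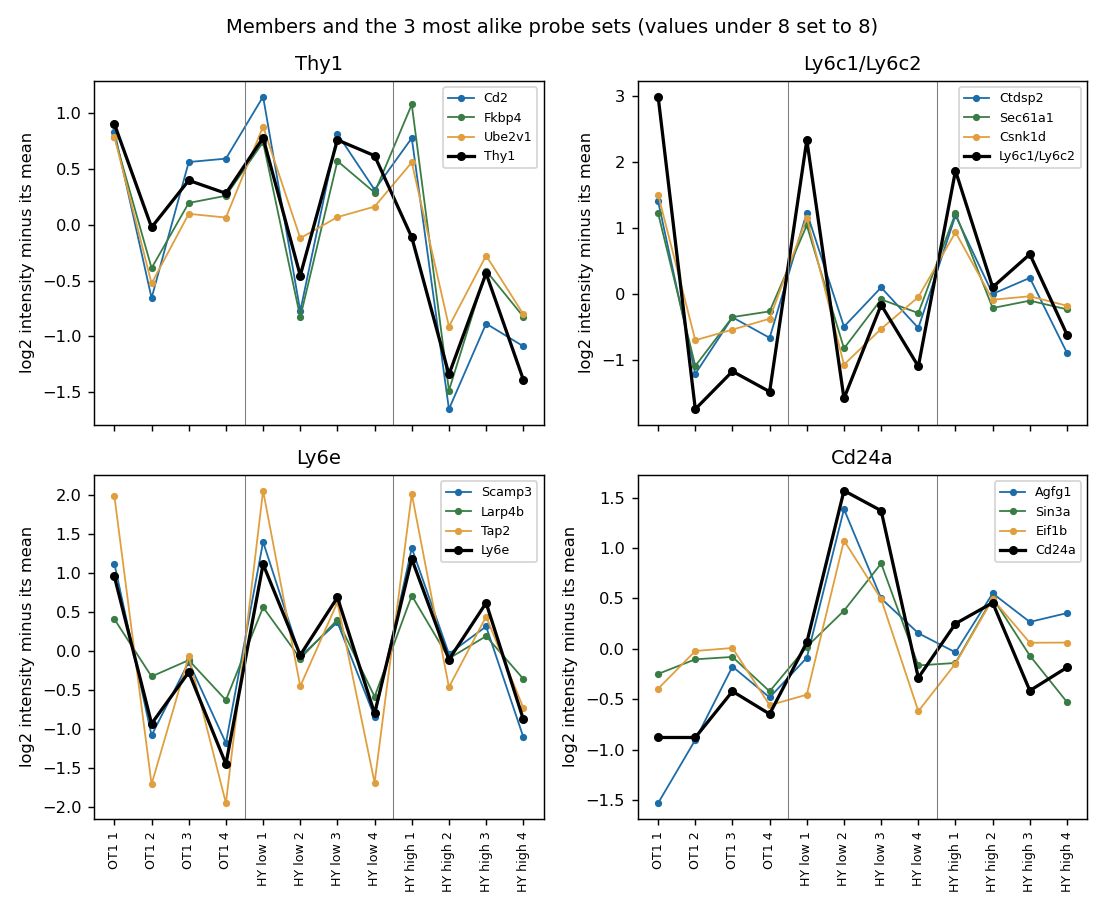
Log2 intensity minus its mean over the 12 arrays (values under 8 set to 8) for each tested member (black) and the 3 probe sets most correlated with it. The companions of Thy1, led by Cd2 (r = 0.89), are low on HY_high arrays 2 to 4, and those of Ly6e and Ly6c1/Ly6c2 repeat the high value on arrays numbered 1.

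Both Ly6d probe sets were at the bottom of the scale. The first ran from 1.06 to 2.91 in OT1, 1.21 to 3.67 in HY_low and 1.11 to 1.45 in HY_high. The second ran from 1 to 3.18, 1 to 2.70 and 1.09 to 2.49. Neither passed the filter, the groups overlapped throughout, and Ly6d was not detectable above the level at which the dimmest values of the table lie.

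The rest of the Ly6 superfamily was equally dim. Of 31 further genes listed, 11 had a probe set with 1 symbol, all 11 had a median below 8, and 6 were tested. None passed in any comparison by limma, with or without the block, and at an unadjusted p under 0.05 there were 1, 0 and 1 of the 6 by either fit. Of all probe sets tested, 2.65% (HY_low against OT1), 4.08% (HY_high against OT1) and 2.96% (HY_high against HY_low) had such a p without the block. With it 8.37%, 11.7% and 11.1% did. The list had median log2 differences of -0.12 (HY_low against OT1), -0.09 (HY_high against OT1) and 0.30 (HY_high against HY_low), where the medians of all probe sets tested were 0.01, 0.02 and 0.01. The brightest were Cd59b, an inhibitor of complement, with a geometric mean of 3.36 over the 12 arrays, Lypd8 with 2.80 and Ly6g6c with 2.58.

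Other GPI-anchored surface antigens lay on both sides of 0 in HY_high against OT1, 5 above and 4 below. Of 28 listed, 16 were measured and 9 tested. None passed without the block in any comparison, with 0, 1 and 0 at an unadjusted limma p under 0.05 in HY_low against OT1, HY_high against OT1 and HY_high against HY_low. With the block these counts were 0, 3 and 4 of 9. Of all probe sets tested, 2.65%, 4.08% and 2.96% had such a p without the block, and 8.37%, 11.7% and 11.1% with it. After adjustment 1 passed with the block, Cd160, a receptor of cytotoxic lymphocytes, which rose in HY_high. Its geometric means were 47.9 (OT1) and 128 (HY_high, 1.42 ± 0.54 log2 units higher, limma adjusted p = 0.942, or 0.0305 with the block). In that comparison 1.13% of all probe sets tested were higher past the threshold with the block. Cd52, a short lymphocyte glycoprotein, had 330 in OT1, 363 in HY_low and 227 in HY_high (HY_high against OT1 -0.54 ± 0.34, limma adjusted p = 1, or 0.243 with the block). Cd48, a ligand of SLAM family receptors, had 305, 231 and 322 (0.08 ± 0.43 in the same comparison, limma adjusted p = 1). The median log2 differences of the list were 0.22 for HY_low against OT1, 0.00 for HY_high against OT1 and -0.19 for HY_high against HY_low.

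Genes of GPI anchor synthesis and attachment, which serve all members, did not differ past the threshold. Of 28 listed, 15 were measured and 14 tested, and none passed by limma with or without the block. At an unadjusted limma p under 0.05 there were 0 of the 14 in each comparison by either fit. Of all probe sets tested, 2.65%, 4.08% and 2.96% had such a p without the block, and 8.37%, 11.7% and 11.1% with it. Among 14 genes a count of 0 is near these shares and says little. The list's medians were 0.13, 0.01 and 0.05 in the 3 comparisons. Dpm2, a subunit of the mannose donor synthase, had 59.5 in OT1, 67.3 in HY_low and 60.2 in HY_high. Dpm3, of the same enzyme, had 46.4, 58.7 and 44.8, and Pigk, of the transamidase that attaches the anchor, had 30.4, 43.2 and 38.5.

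Interferon response genes, among which Ly6 genes are often counted, were mostly above OT1 in both HY groups. Of 35 listed, 26 were measured and all were tested. The log2 difference from OT1 was above 0 for 25 in HY_low (median 0.84) and for 26 in HY_high (median 1.39), and both comparisons share the OT1 arrays. None passed without the block, although 7 and 16 had an unadjusted limma p under 0.05, against 2.65% and 4.08% of all probe sets tested. With the block 17 and 20 had such a p, against 8.37% and 11.7%, and after adjustment 0 passed in HY_low and 9 rose in HY_high. With the block, 0.0805% and 1.13% of all probe sets tested were higher past the threshold in these comparisons. Irf9, a subunit of the interferon-stimulated factor, was one of the 9 (log2 difference 1.22 ± 0.47, limma adjusted p = 0.942, or 0.0275 with the block). The others were Usp18, Iigp1, Ifit1, Isg15, Trim30a, Ifih1, Gbp3 and Igtp, with log2 differences from 1.43 (Igtp) to 3.27 (Usp18) and block adjusted p by limma from 0.00145 (Usp18) to 0.0353 (Ifit1). Psmb8 and Psmb9, subunits of the immunoproteasome, had 0.31 ± 0.39 and 0.87 ± 0.64 (limma adjusted p = 1 for both, or 0.572 and 0.122 with the block). The list's median log2 intensity per array ran from 2.78 to 4.14 in OT1, 3.86 to 5.34 in HY_low and 4.38 to 5.97 in HY_high. This median was highest on array 1 in OT1 and on array 3 in HY_low and HY_high. The list's summed intensity was highest on array 1 in all 3 groups (2290, 2330 and 2323), as Ly6e was. Tap2, named above among the probe sets most like Ly6e, belongs to this list. A link between Ly6e and the interferon genes was not tested. An earlier analysis of these arrays already showed the higher interferon list, so its counts are no independent support.

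Genes of thymocyte stages gave a background for Thy1 and Cd24a. Of 15 maturation genes, 12 were measured and 11 tested. None passed without the block (1, 0 and 2 had an unadjusted limma p under 0.05, or 1, 6 and 6 with the block), and with it 1 fell in HY_high against OT1, which was Cd2. Over all probe sets tested such a p was found in 2.65%, 4.08% and 2.96%, or 8.37%, 11.7% and 11.1% with the block. Lower past the threshold in HY_high against OT1 were 0.0345% of all probe sets tested, or 0.23% with the block. The medians of the list were 0.26, -0.48 and -0.33 in the 3 comparisons. Its other bright genes were H2-K1, a class I molecule (575 in OT1, 691 in HY_low and 877 in HY_high on the brightest probe set), and Bcl2, a survival factor (160, 231 and 257). Of 16 genes of double-positive thymocytes, 13 were measured and 12 tested. Without the block 1 fell in HY_high against OT1 and 1 in HY_high against HY_low, and with it 2 and 1. In HY_high against HY_low 2 of all probe sets tested passed, or 30 with the block. At an unadjusted limma p under 0.05 there were 0, 3 and 3 of the 12, or 1, 5 and 5 with the block. The list's medians were -0.05, -0.23 and -0.43. The one in both comparisons was Cd8b1. In HY_high against OT1 the block added Satb1, a chromatin organiser, at 32.9 against 73.1 (-1.15 ± 1.10, limma adjusted p = 1, or 0.047 with the block). Cd8b1 was at 4.52 against 693 (log2 difference -7.26 ± 0.75, limma adjusted p = 6.8e-05). Cd8a, the CD8 alpha chain, had 157 against 340 (-1.11 ± 0.58, limma adjusted p = 1) and Tcf12, an E protein, had 81.0 against 63.1 (0.36 ± 0.74, limma adjusted p = 1).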

How the data were processed

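The series holds 12 arrays, 4 in each of 3 groups, grouped by sample title. The authors deposited a single table of linear intensity values for 12488 probe sets. Their background correction, summarising and scaling are not given in the sources that were used, and the values were used as deposited. Control probe sets (66) were left out of all but the comparison of transcript ends, leaving 12422. These were log2 transformed. Testing covered each probe set whose mean log2 value exceeded the 30th percentile of such means (intensity 1.76), which left 8695. Symbols came from the platform annotation, updated by gene ID: 10833 of the 12422 had 1 symbol, 396 several and 1193 none. List genes are read from their brightest probe set that has 1 symbol.

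The limma model (limma 3.58.1 in R 4.3.3) had a mean per group, 9 residual degrees of freedom and an intensity trend. P-values are two-sided and adjusted by Benjamini-Hochberg over all 8695, with a threshold of 0.05. The replicate block left 6 residual degrees of freedom. Genes named from a pathway list are its 3 brightest and those past 0.05 with or without the block. Marker genes of other cell types were named after their values were seen. Likeness used probe sets with a median of at least 32. Members and lists were chosen with earlier results of these data known.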

Additional observations from a re-analysis of the deposited data

Results flagged for a closer look

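Among 12 sets of 4 arrays (4 tested probe sets in 3 groups), 2 held an array far from the other 3, where chance gives about 1 in 20. Thy1 on HY_low array 2 was at 301, and the other HY_low arrays were at 634 to 709. Its gap to the nearest array was 0.87 of the group's log2 range, above Dixon's critical value for 4 samples. Thy1 was also the lowest of its group on OT1 array 2 (407). The probe set of Ly6c1 and Ly6c2 on OT1 array 1 was at 1645, and the other OT1 arrays were at 62.0 to 92.1, with a gap of 0.88 of the range.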

How the results depend on the processing

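The 4 tested members were recomputed under 19 alternatives in each comparison. In HY_high against OT1 all 4 kept their direction under these, with log2 differences from -1.44 to -1.02 for Thy1, 0.38 to 1.95 for Ly6c1/Ly6c2, 0.29 to 1.09 for Ly6e and 0.53 to 1.18 for Cd24a. Without the replicate block no alternative gave Thy1 an adjusted p under 0.152. In HY_low against OT1, Ly6e (0.32 to 1.12) and Cd24a (1.10 to 1.93) also kept theirs. Thy1 and Ly6c1/Ly6c2 had no stable direction there. Leaving out 1 array gave -0.10 to 0.33 for Thy1 and -0.60 to 1.34 for Ly6c1/Ly6c2. Thy1 was at -0.11 with quantile normalization, and with the block at -0.073 without the arrays numbered 3 and -0.064 without those numbered 4. Ly6c1/Ly6c2 was at -0.038 with the block and without the arrays numbered 3. The cause was not tested. With values under 8 set to 8, Cd24a differed by 1.39 (HY_low against OT1) and 0.73 (HY_high against OT1).

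Counts of probe sets past the threshold moved more. HY_low against OT1 had 2, or 8 with the replicate block, 4 with array weights, and 11, 8, 6 and 9 with the block and without the arrays numbered 1, 2, 3 or 4. HY_high against OT1 had 15, or 118 with the replicate block, 8 with values under 8 set to 8, 9 without the filter, 64 with array weights, and 135, 63, 44 and 51 with the block and without one number. Leaving out 1 array gave 6 to 14. HY_high against HY_low had 2, or 30 with the replicate block, 4 with values under 8 set to 8, 1 with scaling to one median, 7 with array weights, and 31, 13, 4 and 7 with the block and without one number. Leaving out 1 array gave 1 to 4. Without the filter limma gave 0 there, with 431 at an unadjusted p under 0.05. Alternatives that leave out the arrays of one number were chosen after seeing the data. Ly6d and the second Ly6e probe set lie at the bottom of the scale, where the arrays cannot show a difference.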
